A study of Saccharomyces cerevisiae with 4 samples.

Results

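Of the 76 small nucleolar RNA (snoRNA) genes that the RefSeq table of the R64 yeast genome lists on the nuclear chromosomes, 9 were examined here: SNR18, SNR24, SNR38, SNR39, SNR39B, SNR44, SNR54, SNR59 and SNR191. They were chosen by name, as snoRNAs described as lying in introns of protein-coding genes, and the rule uses no measured value, though the list was drawn up with earlier results of these data known. Each was set against the table to find the coding gene whose interval holds it. A host was found for 8 of the 9, each on the same strand as its snoRNA. SNR39B (chromosome VII, 366374 to 366469, minus strand) had none. It lies in the intergenic space between RPL7A, whose annotated start is separated from it by 377 bp, and MPS2, 455 bp away on its other side, and it is treated apart from the 8 hosted snoRNAs below. The table gives gene intervals but no introns, so that the intronic position of the other members rests on their description. It does not mark untranslated ends either. A place upstream of an annotated start or past an annotated end can therefore still lie in that gene's transcript.

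snoRNAs guide the chemical modification of ribosomal RNA by base pairing. C/D box snoRNAs direct methylation of the ribose, carried out by Nop1 together with Nop56, Nop58 and Snu13, and H/ACA box snoRNAs direct the conversion of uridine to pseudouridine by Cbf5 with Gar1, Nhp2 and Nop10. Most yeast snoRNAs are transcribed from promoters of their own, alone or in clusters. The intronic ones are part of the transcript of their host and therefore share the promoter and the RNA polymerase II of a coding gene. They can be released after splicing, when Dbr1 opens the intron lariat and exonucleases such as Rat1 and Xrn1 trim its ends. SNR44 and SNR191 are of the H/ACA kind and the other members of the C/D kind.

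The measurements come from chromatin immunoprecipitation followed by sequencing (ChIP-seq) with the M2 antibody against the FLAG tag in Saccharomyces cerevisiae. The groups were a strain carrying Acs2-FLAG, a tagged form of the nuclear and cytosolic acetyl-CoA synthetase, and an untagged strain. For each strain, 1 immunoprecipitate and 1 input made without antibody were sequenced. Both strains were grown in YPD rich medium containing 2% glucose, at 28 °C, to an optical density between 0.7 and 1.0, and fixed with 1% formaldehyde. The position of the tag and any further genotype are not stated in the labels. Each group is 1 library, so that values carry no error between replicates and the strains could not be tested against each other. Values at the same locus compare these libraries, not the strains.

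The Acs2-FLAG list held 912 peaks and the untagged list 34, of which 24 were nuclear. Fold enrichment is the authors' own ratio of fragments at a peak's highest point, the summit, to the local background. The intervals given with it are exact Poisson intervals at 95% confidence, which hold the background fixed and cover counting error only. The lowest background at a summit was 291.1 fragments in the Acs2-FLAG library and 198.4 in the untagged library. At that background, a fold of 1.16 reached the lowest −log10 p of the Acs2-FLAG list, and a fold of 1.26 that of the untagged list.

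None of the 8 hosted snoRNAs held the summit of an Acs2-FLAG peak. At 4 of them, SNR18, SNR24, SNR38 and SNR44, a broad peak ran over the whole snoRNA with its summit at least 384 bp away. At SNR39 and SNR59, which lie in the paralogous ribosomal protein genes RPL7A and RPL7B, peaks covered other stretches of the host and stopped short of the snoRNA. SNR54 and SNR191 had no peak on the snoRNA or anywhere in the host. SNR39B, the member without a host, was the 1 member with a summit inside it, in a peak of 2.07-fold. Counted over all 9, 5 were met by an Acs2-FLAG peak and 1 held its summit; over all nuclear snoRNA genes these shares were 89.5% and 44.7%. The untagged list met 0 of the 9 members, as it met 0% of nuclear snoRNA genes.

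**Figure D1:**
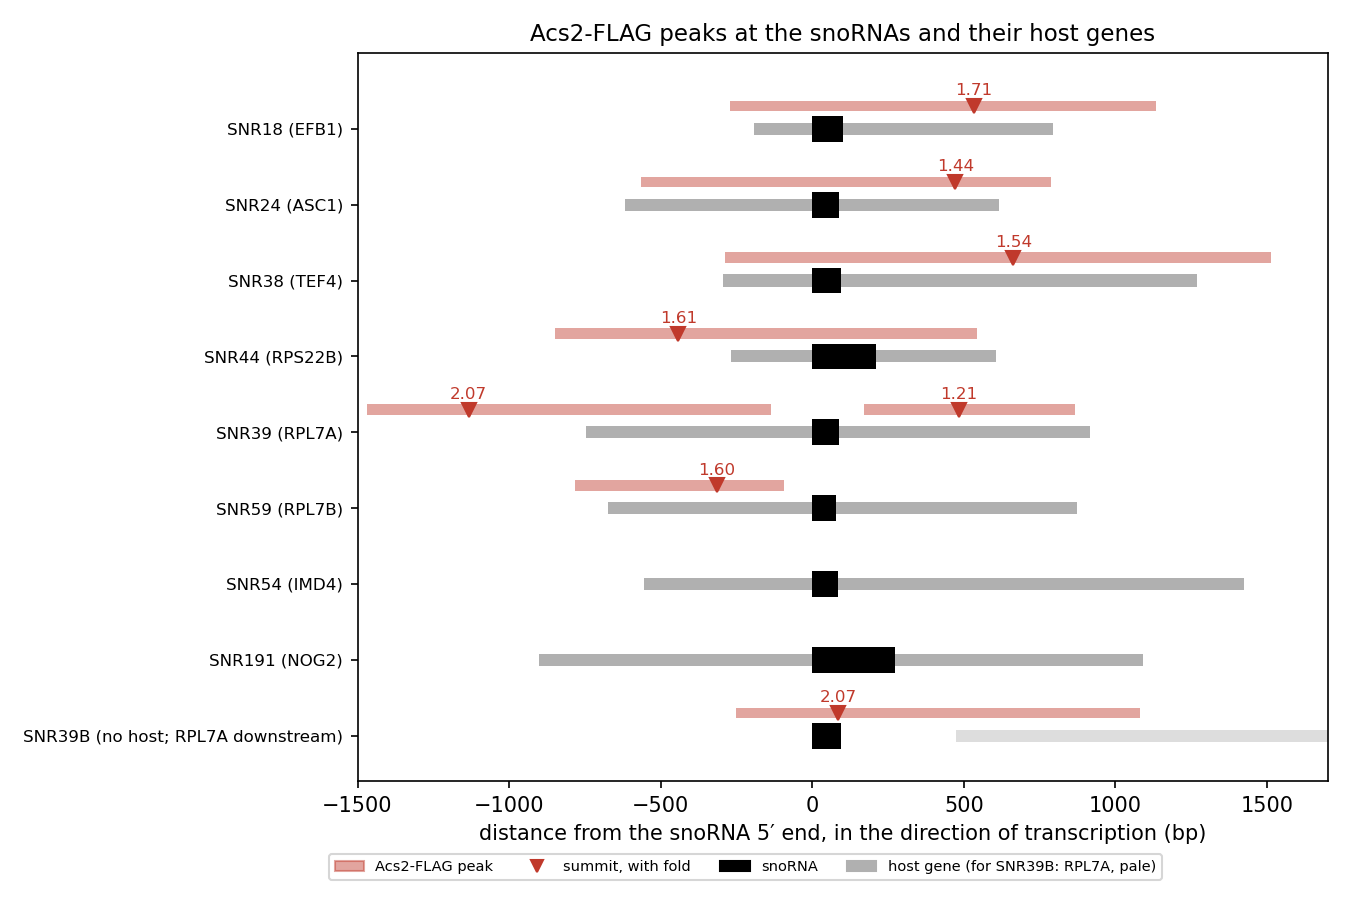
Each row shows 1 snoRNA (black) and its host gene (grey) with the Acs2-FLAG peaks above them (red bars, triangles at the summits, fold beside each); the horizontal axis is the distance in bp from the first base of the snoRNA, read in the direction of transcription. Summits lie off the snoRNA in all rows with a host and a peak, and on the snoRNA at SNR39B, where the peak reaches on into RPL7A (pale grey).

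SNR18 (chromosome I, 142367 to 142468, plus strand) guides methylation of the large-subunit ribosomal RNA. It lies in EFB1 (142174 to 143160), which encodes the alpha subunit of translation elongation factor eEF1B, the exchange factor that recharges eEF1A with GTP. A single Acs2-FLAG peak, from 142095 to 143501, covered 100% of EFB1 and ran 341 bp past its annotated end. The fold at the summit was 1.71 (1.58 to 1.84), from 644 fragments over a background of 377. That background exceeded the background of 95.3% of the peaks in the list, while its fold was above that of 54.4% of them. The summit, at 142900, lay 432 bp downstream of SNR18 and 260 bp before the end of EFB1.

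SNR38 (chromosome XI, 283185 to 283279, plus strand), a further guide for the large-subunit RNA, lies in TEF4 (282891 to 284455), which encodes the gamma subunit of the same elongation factor. The peak there, from 282898 to 284697, covered 99.6% of TEF4 and was 1800 bp wide, wider than 89.8% of the list. Its fold was 1.54 (1.41 to 1.68), with 487 fragments over a background of 316. Both of these eEF1B subunit genes showed the same layout, a peak over the whole gene with the summit past the snoRNA: at TEF4 the summit was 570 bp downstream of SNR38.

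SNR24 (chromosome XIII, 499984 to 500072, minus strand), again a guide for the large-subunit RNA, lies in ASC1 (499456 to 500688), which encodes the small-subunit ribosomal protein known as RACK1 in other eukaryotes. The peak, from 499285 to 500636, covered 95.8% of ASC1 and stopped 52 bp short of its annotated start. Its fold was 1.44 (1.30 to 1.58), with 431 fragments over a background of 300. The summit was 384 bp downstream of SNR24 and 144 bp before the end of ASC1, the closest to a host's end of any host summit.

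SNR44 (chromosome XII, 856710 to 856920, plus strand) is a pseudouridylation guide in RPS22B (856442 to 857317), which encodes a small-subunit ribosomal protein. At 211 bp it makes up 24.1% of its host, more than any other hosted member. Its peak differed in layout from those at EFB1, TEF4 and ASC1. It ran from 855863 to 857254, began 579 bp upstream of the annotated start of RPS22B and covered 92.8% of the gene. Its summit, at 856268, lay in no annotated interval, 174 bp upstream of that start and 442 bp upstream of the snoRNA. Whether this place belongs to the RPS22B transcript cannot be read from the interval. The fold was 1.61 (1.47 to 1.76), with 470 fragments over a background of 291.

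The RPL7 genes encode the same large-subunit ribosomal protein, and both carry a C/D box snoRNA, SNR39 (chromosome VII, 365163 to 365251, minus strand) in RPL7A and SNR59 (chromosome XVI, 173827 to 173904, plus strand) in RPL7B. RPL7A (364335 to 365996) had 2 peaks that left SNR39 between them. The weaker, from 364384 to 365079, ended 83 bp downstream of SNR39 and had its summit 396 bp downstream of it, with a fold of 1.21 (1.10 to 1.34) from 387 fragments over a background of 319. Its −log10 q of 2.75 makes it one of the weakest in the list, with a lower fold at 5.04% of the peaks. The stronger, from 365386 to 366720, stopped 134 bp upstream of SNR39 and had its summit outside RPL7A, 388 bp upstream of the annotated start and on SNR39B. At RPL7B (173152 to 174702) a single peak, from 173045 to 173735, covered 37.7% of the gene at its start and ended 91 bp before SNR59. The fold was 1.60 (1.46 to 1.75), with 467 fragments over a background of 291 and the summit 315 bp upstream of SNR59. A peak covered the upstream end of both RPL7 copies. In RPL7A a second one lay in the downstream part of the gene and stopped short of its annotated end. The summits lay in the downstream part of the gene and on SNR39B for RPL7A, and in the upstream part of the gene for RPL7B. Reads that match both copies could have been placed at either, and the labels do not say how they were handled.

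SNR39B itself, a C/D box snoRNA of 96 bp on the same strand as RPL7A and upstream of it, had the strongest peak at any member, 2.07 (1.91 to 2.24), from 609 fragments over a background of 294. The summit, at 366384, lay 85 bp from the first base of the snoRNA, close to its downstream end, and 37.5 bp from its midpoint. The peak was 1335 bp wide, and SNR39B filled 7.19% of that width.

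No peak of either list met SNR54 (chromosome XIII, 163535 to 163620, minus strand) or SNR191 (chromosome XIV, 721938 to 722211, minus strand). SNR54, a guide for the small-subunit ribosomal RNA, lies in IMD4 (162194 to 164176), which encodes an IMP dehydrogenase of GTP synthesis. SNR191, a pseudouridylation guide for the large-subunit RNA, lies in NOG2 (721120 to 723112), which encodes a GTPase of large-subunit assembly. The nearest Acs2-FLAG peak was 2193 bp from IMD4, with its summit in SML1, and 2878 bp from NOG2, with its summit in the tRNA gene YNCN0020C. These hosts are the longest of the 8, at 1983 and 1993 bp. A peak list does not give the fold where no peak was called, so that enrichment below the calling threshold was not detectable at these loci.

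Ordered by fold, the peaks at these loci ran SNR39B, EFB1, RPS22B, RPL7B, TEF4, ASC1 and the weaker peak of RPL7A. The counting interval of the SNR39B peak lay above those of the other 6. Between every other pair of neighbours in this order, the intervals overlapped. The weaker RPL7A peak lay below EFB1, RPS22B, RPL7B and TEF4 beyond counting error, though not below ASC1. Over the 7 peaks on hosts, the SNR39B peak among them, the fold ran from 1.21 to 2.07. Where the peak ran over a hosted snoRNA it was from 1.44 to 1.71. The median there was 1.58, against 1.61 over all 912 peaks. The 5 summits inside a host had a median fold of 1.54, against 1.36 (quartiles 1.27 and 1.60) at 464 summits in other coding genes. None of the peaks at the listed loci shared a base with an untagged peak, and none of the hosts was met by one, beside 0.4% of coding genes. The nearest untagged peak was 17613 bp from RPS22B and farther from each of the other hosts, and chromosomes XIII and XIV had no untagged peak. A fold as high as those at EFB1, RPS22B, RPL7B, TEF4 and ASC1 would have passed the 1.26 named above at the lowest untagged background, whereas one of 1.21, as at RPL7A, would not. At the 18 Acs2-FLAG peaks that were shared with the untagged list outside the ribosomal DNA, the fold was at least 2.07. The SNR39B peak, also at 2.07, was not shared. Only sites with a called untagged peak can be shared, so this does not show how the peaks at the listed loci relate to background. The background of the untagged library at the hosts themselves is not in the lists, so the bound of 1.26 is that at its lowest background, and untagged signal below it was not detectable.

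**Figure D2:**
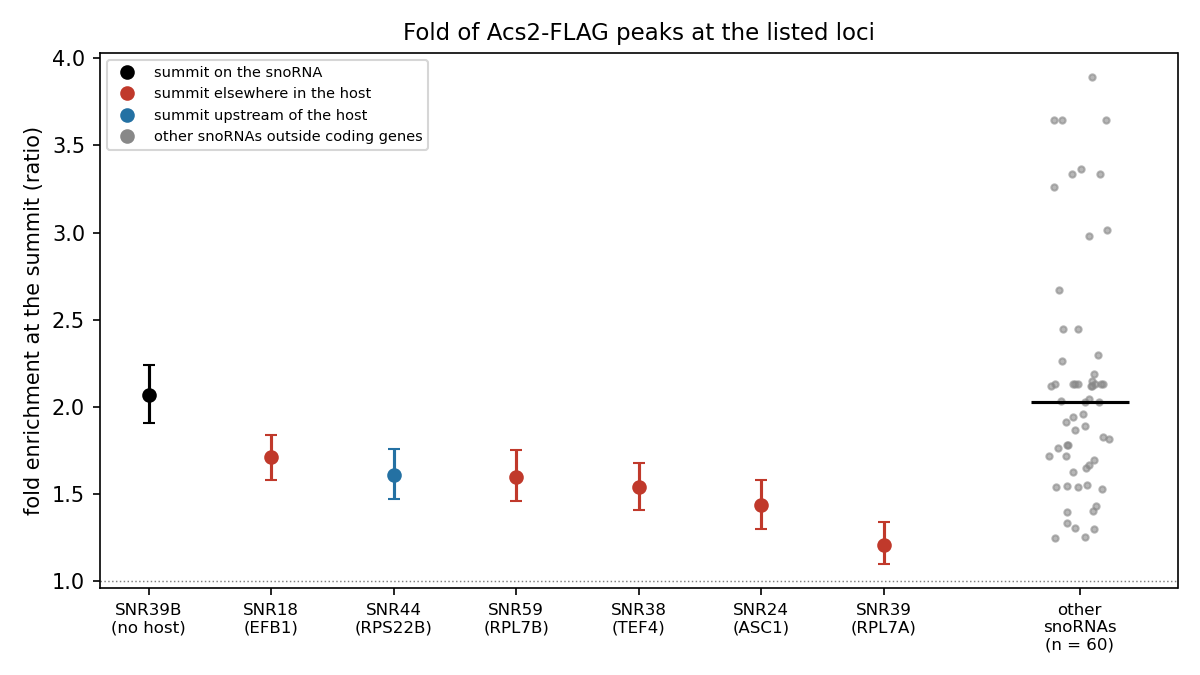
Fold enrichment at the summit (vertical axis, ratio) of the peaks at the listed loci, in descending order, with exact Poisson intervals at 95% confidence as bars and colours for the place of the summit; grey points are 60 other snoRNAs met by a peak, with their median (line). SNR39B at 2.07 stands above the hosted loci, which run from 1.71 at SNR18 in EFB1 to 1.21 at SNR39 in RPL7A, and close to the median of 2.03 of the other snoRNAs. At 30 of the 60 other snoRNAs the summit lies off the snoRNA. The median of the 30 with the summit on the snoRNA, as at SNR39B, is 1.90.

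The snoRNA genes that overlap no coding gene and are not among the 9 gave the comparison. There were 64 of them; SNR10, SNR17A and SNR60 overlap a coding gene in part and were left out. An Acs2-FLAG peak met 4 of the 8 hosted snoRNAs (50%, exact Clopper-Pearson interval 15.7 to 84.3) and 60 of the 64 others (93.8%, 84.8 to 98.3). The summit lay on 0 of the 8 hosted snoRNAs (upper exact bound 36.9%) and on 30 of the 64 others (46.9%, 34.3 to 59.8). The difference in these counts was not tested. The intervals treat genes as independent, and 19 of the 60 snoRNAs met share their peak with a neighbour, as clustered snoRNAs do, which leaves 47 distinct peaks, 30 of them with the summit on a snoRNA.

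From the summit to the midpoint of the snoRNA, the distance was 428 to 617 bp (median 515) at the 4 hosted snoRNAs that were met and had a median of 97.2 bp, with quartiles of 37.1 and 288, at the 60 others. No hosted snoRNA came nearer than 353.5 bp to a summit, at SNR59, whose peak did not reach it. The median fold was 1.58 at the 4 hosted snoRNAs and 2.03 at the 60 others, with overlapping ranges (1.44 to 1.71 and 1.25 to 3.89). Counted once per peak, the median of the others was 1.87. At 30 of the 60 others the summit lay off the snoRNA, so that the fold is that of another place. Their median was 2.13, against 1.90 at the 30 with the summit on the snoRNA. The highest fold, 3.89 at SNR52, had its summit off the snoRNA, as did all 4 hosted values. The widths of the peaks at the hosted snoRNAs were 1352 bp at SNR24, 1392 bp at SNR44, 1407 bp at SNR18 and 1800 bp at SNR38, against a median of 864 bp at the others, whose range of 306 to 3110 bp takes in all 4. The snoRNA filled 5.28 to 15.2% of such a peak at the hosted members, against a median of 18.5% at the others. The length of the others was 4.65 to 151% of peak width, a range that takes in all 4. The part of peak width in the counts of summits was not tested.

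**Figure D3:**
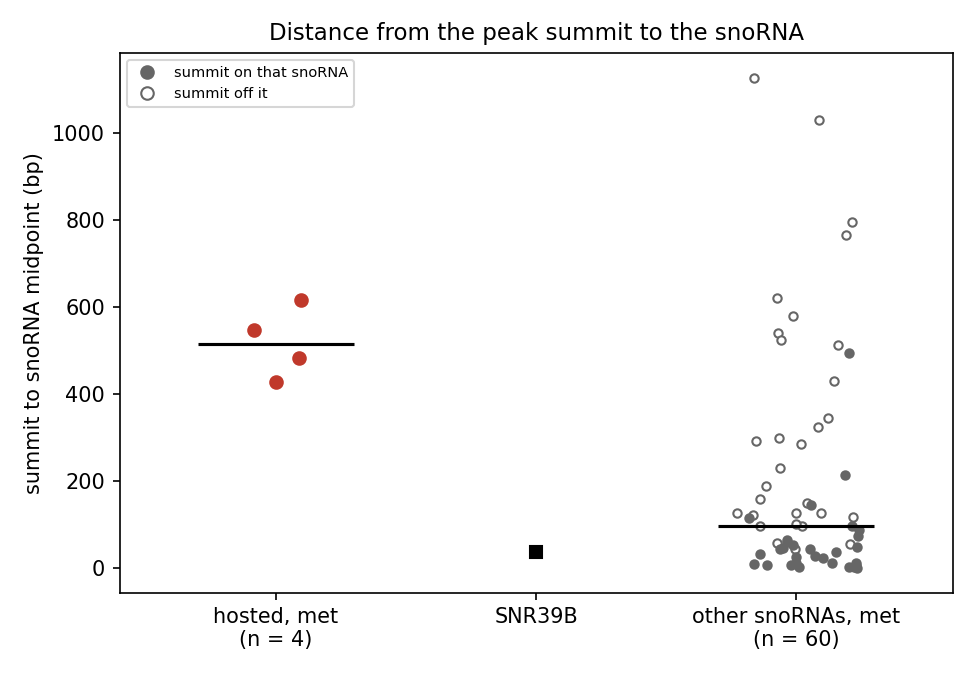
Distance in bp from the peak summit to the snoRNA midpoint (vertical axis), for the 4 hosted snoRNAs met by a peak (red), SNR39B (black square) and 60 other snoRNAs met by a peak (filled where the summit lies on that snoRNA, open where it does not), with lines at the medians. The hosted points lie between 428 and 617 bp, SNR39B at 37.5 bp, and the median of the other snoRNAs is 97.2 bp.

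Each host interval contains its snoRNA, so a host is met whenever its snoRNA is. A peak met 6 of the 8 hosts (75%, exact interval 34.9 to 96.8), where 13.5% of the 6002 nuclear coding genes were met, and 12.1% of the 2681 other coding genes of 876 to 1993 bp, the length range of the hosts. A summit lay inside 5 of the 8, EFB1, ASC1, TEF4, RPL7A and RPL7B (62.5%, exact interval 24.5 to 91.5), against 7.75% of all coding genes. These counts go by the annotated intervals, which leave the RPS22B summit outside its host. Of the hosts, RPL7A, RPL7B, RPS22B and ASC1 encode ribosomal proteins, and all 4 were met. Of the 134 cytosolic ribosomal protein genes that carry no member, 87 were met (64.9%) and 65 held a summit (48.5%). Both shares lie within the exact intervals of the hosts. The median fold of the strongest peak at those 87 genes was 1.40.

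In the 6 hosts that were met, peaks covered a median of 94.3% of the gene, and at least 90% of it in EFB1, TEF4, ASC1 and RPS22B. Among the 804 other coding genes met, the median was 62.5%, and 283 of them (35.2%) were covered to at least 90%. Among the 87 ribosomal protein genes without a member that were met, the median was 78.0%, with quartiles of 49.7 and 98.8, and 34 were covered to at least 90%. The share of hosts covered to at least 90%, 4 of 6, has an exact interval of 22.3 to 95.7%, which holds the shares of both groups. The 4 hosted snoRNAs met by a peak are those in these 4 hosts. Peaks covered 78.6% of RPL7A and 37.7% of RPL7B, and in both the snoRNA lay in the part left uncovered. Along the gene, the summit lay at 88.2% of the length from the annotated start in ASC1, 73.9% in RPL7A, 73.6% in EFB1, 61.2% in TEF4 and 23.2% in RPL7B. In other coding genes the median was 60.1%, and 287 of 464 summits (61.9%) lay past 50% of the gene. The midpoints of the hosted snoRNAs were at 21.8 to 53.5% of the host, which leaves 4 of the 5 summits inside a host downstream of the snoRNA and the summit in RPL7B upstream of it.

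**Figure D4:**
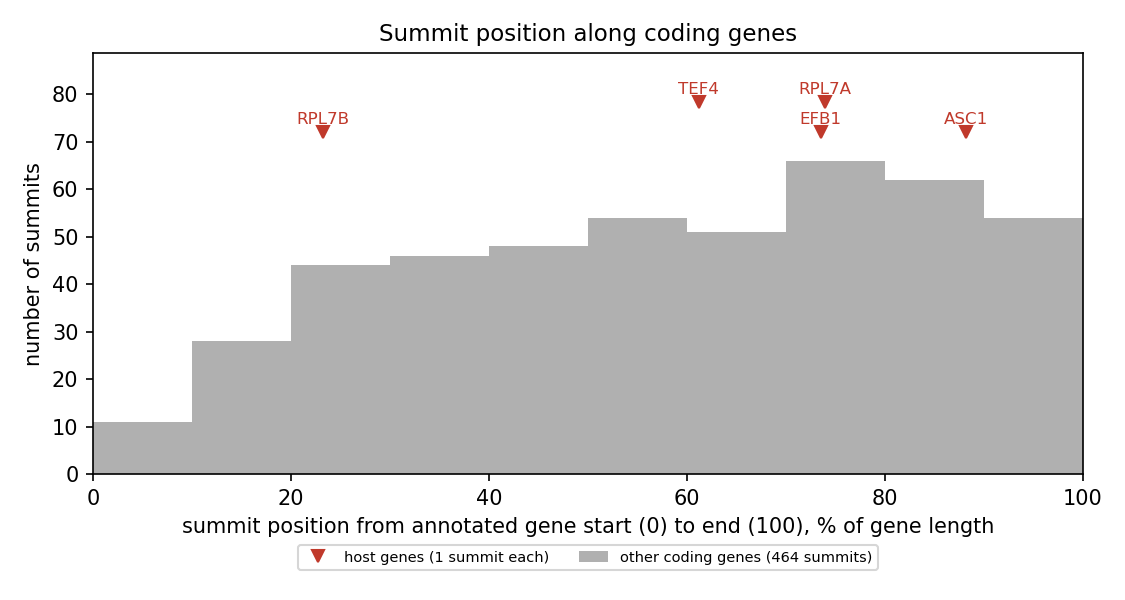
Position of Acs2-FLAG summits along coding genes, as the percent of gene length from the annotated start (horizontal axis), for the 5 host genes with a summit inside them (red triangles; their height has no meaning) and for 464 summits in other coding genes (grey bars, number of summits per 10% of length). The host summits run from 23.2% in RPL7B to 88.2% in ASC1, within the range of the other genes, whose median is 60.1%.

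Close relatives of the hosts that carry none of the 9 snoRNAs were examined beside them. IMD2 and IMD3, which like IMD4 encode IMP dehydrogenase, each had a narrow peak at the start of the gene, where IMD4 had none. The fold was 1.51 (1.37 to 1.65) at IMD2 (chromosome VIII, 554396 to 555967), with the summit 161 bp upstream of the annotated start, and 1.49 (1.36 to 1.64) at IMD3 (chromosome XII, 1002557 to 1004128), with the summit 45 bp upstream. RPS22A (chromosome X, 74910 to 75302), the paralog of RPS22B, was met by a peak of 2.03 (1.87 to 2.19) that had its summit in RPS14B, so that its value is not that of RPS22A. CAM1, related to TEF4, had no peak. Reads shared by the closely similar IMD or RPS22 copies make a value at a single copy uncertain.

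The proteins that build and process snoRNAs were examined as a list of 22 genes. It holds the core proteins NOP1, NOP56, NOP58, SNU13, CBF5, GAR1, NHP2 and NOP10, the assembly factors BCD1, HIT1, RSA1, NAF1, SHQ1, RVB1, RVB2, TAH1 and PIH1, and DBR1, RAT1, XRN1, RNT1 and RRP6, which cut or trim the RNA. An Acs2-FLAG peak met 1 of the 22, beside 13.5% of all coding genes, and an untagged peak met 0. The gene met was HIT1 (chromosome X, 538772 to 539266), in a peak of 3.31 (3.11 to 3.52) that covered 8.48% of it and had its summit in the tRNA gene HSX1. No gene of the list held a summit, beside 7.75% of all coding genes, a share at which few summits would fall in a list of this size.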

How the data were processed

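The deposited files are a peak list per immunoprecipitate, each set beside the input of its strain per the file headers. The submitters' processing notes name Trimmomatic, BWA, Picard, MACS2 and the build R64, without settings; read totals are not stated. Each peak has the authors' fold, a ratio at the summit, the authors' −log10 p and −log10 q, and a deposited score (10 times the −log10 q, rounded down), which was not used.

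Peaks were matched to the RefSeq R64 gene table at an overlap of at least 1 bp. A host is a coding gene whose interval holds the whole snoRNA. Strand was read from the systematic name. Fragment count and background were solved from the fold, (n + 1)/(background + 1), and its Poisson p, and came out whole within 0.05 at 907 of 912 Acs2-FLAG and 30 of 34 untagged peaks; the solving step was tested on simulated data. Share intervals are exact Clopper-Pearson. Members, hosts, relatives and lists were named by a fixed rule, but members and lists were chosen with earlier results of these data known. The ribosomal DNA is chromosome XII 450000 to 500000. Alternatives were the overlap, stricter peaks, shared peaks left out, windows around the snoRNA and an upstream region. Calculations used scipy 1.17.1, numpy 2.4.6 and pandas 2.3.3 under Python 3.11.15, and figures matplotlib 3.10.9.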

Additional observations from a re-analysis of the deposited data

How the results depend on the processing

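Among the 456 strongest peaks, 2 of the 9 snoRNAs were met in place of 5, and 47 of the 64 others in place of 60. The SNR44 peak, at rank 457 of 912, fell just outside this cut. Limited to peaks with the summit on the snoRNA, the median fold of 1.61 became 2.07, which is SNR39B alone. Restricting the count to the 8 hosted snoRNAs, an alternative chosen after seeing the data, gave 0 summits on a snoRNA in place of 1, since SNR39B is then left out. The counts of snoRNAs met, of summits and of hosts met were otherwise within 1.5 times of the values reported: when a peak had to cover at least 50% of the snoRNA, with −log10 q of at least 5, without peaks shared with the untagged list, with summits within 50 or 100 bp, and with 500 bp upstream of the host. With the wider window of 100 bp, 41 of the 64 other snoRNAs counted as holding a summit, and still 1 of the 9. Without SNR52, an alternative that was not planned, 59 of the other snoRNAs were met and 30 held a summit. The weaker peak of RPL7A, with a −log10 q of 2.75, does not pass the stricter threshold of 5, and RPL7A then counts as met through the SNR39B peak alone. No paired analysis was possible because each group is 1 library. Enrichment below the calling threshold could not be measured.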
